A study of Mus musculus with 24 samples.

Results

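The genes described here are 52 semaphorins, ephrins, netrins, plexins, Eph receptors and other axon guidance genes, followed through dermal fibroblasts and epidermal keratinocytes of mouse back skin. They were taken by symbol (Sema, Plxn, Nrp, Efn, Eph, Ntn, Slit, Robo, Flrt, Dpysl, Rgm, L1cam, Nrcam, Chl1, Lrrn, Srgap, Ablim and related stems) from the genes named in the authors' deposited lists of regulated genes, 52 of 4560 named genes and 88 of 6480 named probe sets. All 52 are therefore genes that the authors had listed as changed in these same samples, 39 in the dermal list, 26 in the epidermal list and 13 in both, so that a high count of changed members is no independent finding. The symbol rule also took Slitrk3, Slitrk6, Ntng1 and Lrrn4cl, which share a name stem with the ligands Slit and netrin or with Lrrn proteins. Guidance genes outside those lists were not analysed here.

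RNA was measured on 24 Affymetrix arrays, 3 for each of 8 groups, and each array held cells of 1 mouse on a C57BL/6 CBA mixed background. Per the labels, the sorted cells were dermal fibroblasts positive for GFP and epidermal keratinocytes positive for ItgA6, taken from wild-type neonatal skin, wild-type skin in telogen (the resting phase of the hair cycle), D2 skin after transient activation (labelled anagen, the growth phase) and D2 skin with sustained activation (labelled ectopic follicles). D2 is known as a transgenic line in which an inducible, stabilised β-catenin is made in basal keratinocytes from the Krt14 promoter, so that activation starts in the epidermis and the dermis responds. The labels used here give no age in days, no treatment of the wild-type mice and no promoter for GFP. Differences between D2 and wild-type telogen skin therefore hold genotype, activation and any treatment together, and these cannot be told apart. Averaged over states, all 6 named fibroblast markers were higher in dermis and all 4 named keratinocyte markers in epidermis. Col1a1, Col1a2, Col3a1, Lum and Vim had group means of 10.36 to 12.69 in the 4 dermal groups and Dcn of 5.21 to 7.72, but Col1a1, Col1a2 and Col3a1 also read 10.24 to 11.26 in neonatal epidermis. Krt5, Trp63, Itga6 and Perp had group means of 9.62 to 12.32 in the 4 epidermal groups.

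Axon guidance genes encode secreted or membrane-bound cues and their receptors, which steer growing axons and, in other tissues, migrating cells and vessels. Class 3 semaphorins are secreted and signal through neuropilins and plexins, ephrins are membrane-bound ligands of Eph receptor kinases and can signal in both directions at a cell contact, netrins and Slit proteins are laminin-like or leucine-rich matrix cues, and CRMP (Dpysl), srGAP and Ablim proteins link receptors to the cytoskeleton. In skin these cues are known for patterning sensory nerves and vessels, and ephrins and semaphorins are also made by keratinocytes and fibroblasts of the hair follicle.

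The 250 bases before and 50 bases after the annotated start of 4 members are shown (RefSeq, GRCm38.p6, plus strand). Sema3a, Sema3c and Sema3e were chosen as class 3 semaphorin genes of chromosome 5 whose dermal levels moved in different directions. Nrp2 was chosen because it encodes a receptor of that class. Sema3d, also on chromosome 5, is not shown, and it passed no comparison with the deposited scaling. The windows lie at chr5:13396534-13396833 for Sema3a, chr5:17574566-17574865 for Sema3c, chr5:14025026-14025325 for Sema3e and chr1:62703067-62703366 for Nrp2. Capitals mark 7-base strings known as the binding site of TCF/LEF factors, the DNA-binding partners of β-catenin: the string CTTTGAA, the string CTTTGAT, the string CTTTGTA or the string CTTTGTT, on either strand.
Sema3a: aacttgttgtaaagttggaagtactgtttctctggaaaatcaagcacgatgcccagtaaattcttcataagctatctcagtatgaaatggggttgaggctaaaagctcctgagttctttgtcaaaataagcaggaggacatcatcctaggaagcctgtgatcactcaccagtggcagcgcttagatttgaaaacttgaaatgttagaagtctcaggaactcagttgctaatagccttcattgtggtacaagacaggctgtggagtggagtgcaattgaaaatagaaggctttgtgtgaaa
Sema3c: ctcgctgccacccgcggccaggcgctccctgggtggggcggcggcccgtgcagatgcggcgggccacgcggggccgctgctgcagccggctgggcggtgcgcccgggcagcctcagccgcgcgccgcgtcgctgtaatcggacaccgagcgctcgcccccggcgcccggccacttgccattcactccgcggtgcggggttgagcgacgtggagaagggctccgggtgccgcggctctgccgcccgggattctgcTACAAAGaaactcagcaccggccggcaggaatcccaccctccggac
Sema3e: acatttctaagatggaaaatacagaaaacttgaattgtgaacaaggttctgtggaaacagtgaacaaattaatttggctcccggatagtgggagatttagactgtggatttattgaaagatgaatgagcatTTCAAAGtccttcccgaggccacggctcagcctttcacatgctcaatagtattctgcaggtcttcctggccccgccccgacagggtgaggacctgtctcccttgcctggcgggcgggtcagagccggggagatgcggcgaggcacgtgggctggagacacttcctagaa
Nrp2: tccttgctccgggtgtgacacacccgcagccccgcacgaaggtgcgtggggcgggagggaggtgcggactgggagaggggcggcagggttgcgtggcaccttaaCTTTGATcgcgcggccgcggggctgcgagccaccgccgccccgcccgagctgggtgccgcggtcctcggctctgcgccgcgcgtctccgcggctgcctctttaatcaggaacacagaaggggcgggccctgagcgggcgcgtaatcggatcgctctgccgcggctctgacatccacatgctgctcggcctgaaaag
Such a string stood in a window of 9 of the 42 members that have one in the table (21.4%), against 5121 of 27025 genes (18.9%). Among members that changed against telogen in sustained-activation dermis, it stood in 3 of the 12 with a window that rose (Nrp2, Plxnb1, Sema3e) and in 4 of the 10 with a window that fell (Ablim1, Flrt2, Sema3c, Sema6d). A match is a description of these letters and not evidence of binding, and the windows cover the promoter alone.

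Signals are log2 values in which the trimmed mean of each array was set to 100 on the linear scale, and 1 unit is a 2-fold difference. Each gene is given by its probe set with the highest mean over the 24 arrays, and levels of different genes cannot be compared. A member was called changed at an adjusted p under 0.05 in limma, with p-values adjusted over all 45037 probe sets (Benjamini-Hochberg). Values below about 5, a linear signal of 32, are dim, and their log2 differences are imprecise. The medians of the arrays lay between 4.34 and 5.50, and the array of replicate 4 of transient epidermis stood apart, with the highest median (5.50) and the lowest mean correlation with its own group (0.82). Because sorted cells were measured in bulk, fewer cells of a type and less RNA per cell cannot be told apart.

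In dermal fibroblasts, the guidance genes differed from telogen in the neonatal and the sustained-activation state. Of the 52 members, 13 were higher and 13 lower in neonatal than in telogen dermis. Over all 4560 named genes 23.4% were higher and 28.2% lower, and 13.3% of all probe sets passed the test, so the members' share was close to that of the listed genes. In sustained-activation dermis 13 members were higher and 14 lower than in telogen, where 18% of named genes were higher, 19.2% were lower and 11% of all probe sets passed. Both comparisons use the same 3 telogen arrays, and the median of all probe sets was 0.42 higher in sustained than in telogen dermis. With each array centred on its median, 9 members were higher and 16 lower: Efna5, Efnb2, Sema3e and Sema5a lost their call and Ntng1 and Sema4f gained one. Quantile normalization gave 12 higher and 16 lower. The map of differences from telogen shows these calls by family.

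**Figure D1:**
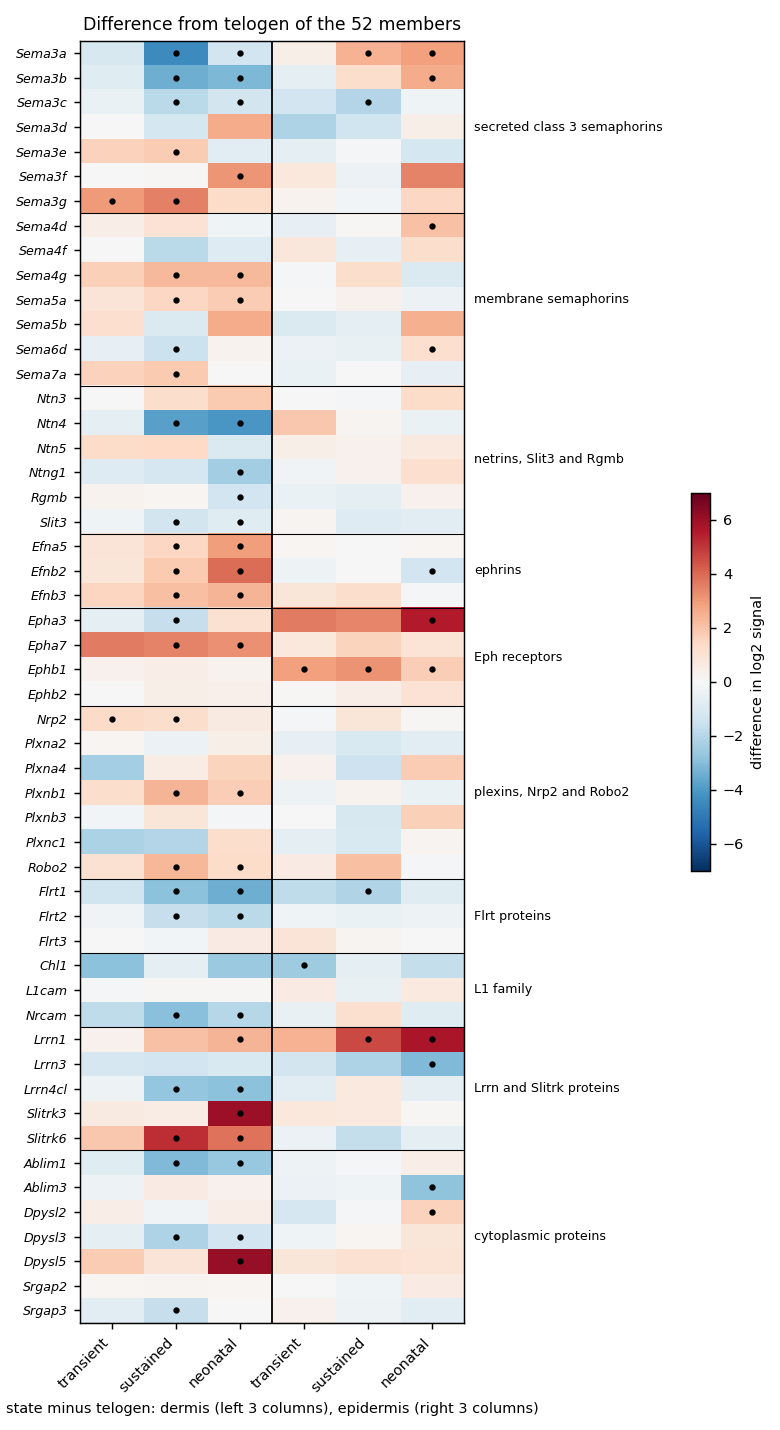
Difference in mean log2 signal from telogen (colour, blue lower and red higher) of each of the 52 members (rows, grouped by role) in transient, sustained and neonatal cells of dermis (left 3 columns) and epidermis (right 3 columns), 3 arrays a group, with black dots at an adjusted p under 0.05. In dermis 27 members are dotted in the sustained column and 26 in the neonatal column, against 2 in the transient column.

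Among the secreted class 3 semaphorins, Sema3a, Sema3b and Sema3c fell. Sema3a, a chemorepellent of sensory axons, read 9.70, 10.09 and 10.06 on the telogen dermal arrays and 5.31, 5.58 and 5.58 on the sustained ones. Its transient arrays read 9.46, 9.01 and 8.09 and its neonatal arrays 8.41, 8.65 and 8.79. The sustained arrays thus lay far below every other dermal array. Against telogen the difference was −4.46 ± 0.33 (SE, adjusted p = 0.000343) in the sustained state and −1.33 ± 0.33 (adjusted p = 0.0259) in the neonatal one. The neonatal fall of Sema3a is therefore called but much smaller than its sustained fall, and sustained and neonatal dermis themselves differed by −3.13 ± 0.33 (adjusted p = 0.00141).

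Sema3b, which also repels axons, read 9.43, 9.54 and 9.52 in telogen dermis, 5.82, 6.31 and 6.17 in the sustained state and 6.15, 6.50 and 6.39 in neonatal dermis. Both low groups lay well below telogen. The differences from telogen were −3.40 ± 0.31 (adjusted p = 0.000735) and −3.14 ± 0.31 (adjusted p = 0.00024). Sema3c, a ligand of neuropilins in vessel and heart development, fell less, from a mean of 9.43 ± 0.13 (SD, n = 3) in telogen to 7.54 ± 0.25 in sustained (adjusted p = 0.00659) and 8.15 ± 0.14 in neonatal dermis (adjusted p = 0.0269).

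Sema3g, a class 3 semaphorin known from vessels, moved the other way. It read 6.29, 7.26 and 6.73 in telogen dermis, 8.92, 9.83 and 10.46 in the transient state and 10.13, 10.29 and 10.40 in the sustained state. All activated arrays were above all telogen arrays. The difference was 2.97 ± 0.38 (adjusted p = 0.0146) after transient and 3.52 ± 0.38 (adjusted p = 0.00113) after sustained activation, while the neonatal mean of 8.03 ± 0.12 did not pass the test against telogen. The transient call was lost without telogen replicate 2 or transient replicate 3. Sema3e, whose known receptor is a plexin that needs no neuropilin, rose from a dim telogen level (4.09, 4.59 and 3.04) to 5.77, 6.11 and 5.21 in sustained dermis (difference 1.79 ± 0.41, adjusted p = 0.0239). Its neonatal arrays stayed dim at 3.01, 2.83 and 3.60, so that sustained dermis exceeded neonatal dermis by 2.55 ± 0.41 (adjusted p = 0.00945). Sema3f was dim on every dermal array, at 0.84 to 2.94 on the telogen arrays against 4.20, 4.92 and 4.98 on the neonatal ones (difference 3.08 ± 0.61, adjusted p = 0.00941, and 1.10 with 16 added to the linear signal before log2). Sema3d passed no comparison with the deposited scaling, though its neonatal dermal arrays (7.41, 7.07 and 7.01) lay above its telogen ones (5.08, 4.95 and 3.64). With centred arrays and with quantile normalization it was called lower in sustained than in neonatal dermis.

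**Figure D2:**
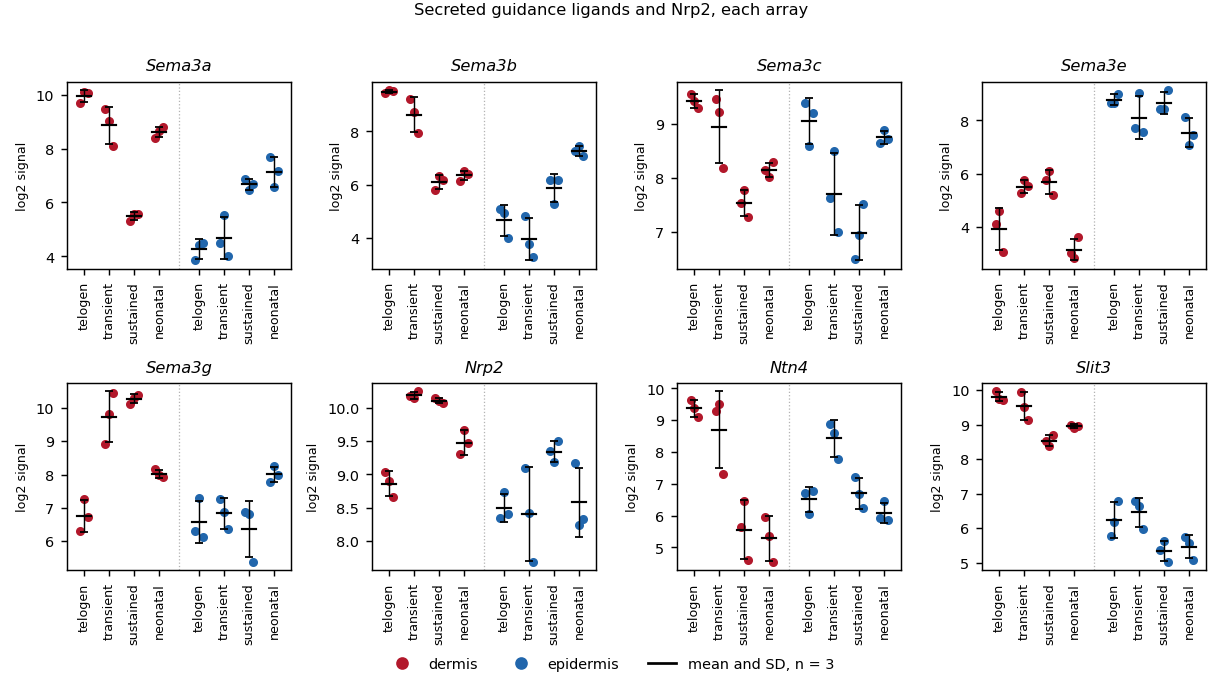
Log2 signal of Sema3a, Sema3b, Sema3c, Sema3e, Sema3g, the receptor gene Nrp2, Ntn4 and Slit3 on each array (points) in dermis (red) and epidermis (blue) of the 4 states, with the group mean and SD (n = 3). In dermis the sustained arrays of Sema3a sit between 5.31 and 5.58, below all other dermal arrays, and those of Sema3g between 10.13 and 10.40, above all telogen arrays.

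The neuropilin gene Nrp2, receptor of several class 3 semaphorins and of VEGF-C, rose with activation. Its arrays read 9.03, 8.90 and 8.66 in telogen dermis, 10.17, 10.14 and 10.24 in the transient and 10.14, 10.09 and 10.07 in the sustained state. The 6 activated arrays lay above every telogen array. The differences were 1.32 ± 0.19 (adjusted p = 0.0268) and 1.24 ± 0.19 (adjusted p = 0.00448). Without telogen replicate 2, telogen replicate 4, transient replicate 3 or transient replicate 4, and with centred arrays, the transient call of Nrp2 was lost. Transient dermis as a whole had few calls. Sema3g and Nrp2 were the only members that passed there, 2 higher and none lower, where 1.43% of named genes were higher, 0.439% lower and 0.488% of all probe sets passed. The count fell to 0 without telogen replicate 2 or without transient replicate 3, to 1 without telogen replicate 4 or transient replicate 4, and rose to 5 without telogen replicate 3.

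Plexins are the signalling receptors of semaphorins, and Plxnb1 is the receptor of membrane semaphorins of class 4. Plxnb1 rose from 3.97, 4.56 and 4.91 in telogen dermis to 7.22, 6.44 and 6.93 in the sustained state (difference 2.39 ± 0.33, adjusted p = 0.00267) and to 6.14, 6.51 and 5.90 in neonatal dermis (1.71 ± 0.33, adjusted p = 0.00829). The telogen arrays were the lowest of the dermal arrays. Plxna2, Plxna4, Plxnb3 and Plxnc1 passed neither comparison with telogen in dermis. Robo2, a receptor of Slit ligands, read 6.85, 6.11 and 5.94 in telogen, 8.46, 8.51 and 8.83 in sustained and 7.54, 7.62 and 7.66 in neonatal dermis. It rose by 2.30 ± 0.31 (adjusted p = 0.00253) and 1.31 ± 0.31 (adjusted p = 0.0218), while the Slit ligand on the list fell: Slit3 had a mean of 9.81 ± 0.14 in telogen, 8.54 ± 0.16 in sustained (adjusted p = 0.01) and 8.95 ± 0.05 in neonatal dermis (adjusted p = 0.0412). Receptor and ligand were thus called in opposite directions in these fibroblasts.

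Of the 7 membrane semaphorins, Sema4g, Sema5a and Sema7a rose and Sema6d fell in sustained dermis. Sema4g read 3.09, 3.50 and 3.33 in telogen, 5.39, 5.14 and 6.26 in sustained and 5.17, 5.39 and 6.20 in neonatal dermis (2.29 ± 0.46, adjusted p = 0.0142, and 2.28 ± 0.46, adjusted p = 0.0106). The sustained difference of Sema4g was 1.33 with 16 added before log2, and its call was lost without sustained replicate 5. Sema5a had means of 6.85 ± 0.33, 8.28 ± 0.37 and 8.61 ± 0.45 in telogen, sustained and neonatal dermis (adjusted p = 0.0221 and 0.00644). Sema7a, which is anchored to the membrane by a lipid and binds integrins, differed between these states: it read 5.31, 6.18 and 4.94 in telogen and 7.50, 7.41 and 7.10 in sustained dermis (1.86 ± 0.32, adjusted p = 0.00763), but 5.44, 5.28 and 5.70 in neonatal dermis. Its neonatal arrays lay within the telogen range. Sema6d fell from 7.30 ± 0.51 to 5.79 ± 0.40 in sustained dermis (adjusted p = 0.0153), with a neonatal mean of 7.57 ± 0.23. Sema4f and Sema5b passed no comparison with the deposited scaling. With centred arrays and with quantile normalization Sema4f was called lower in sustained than in telogen dermis.

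Netrin-4, a laminin-binding matrix netrin, had one of the largest falls. Ntn4 read 9.63, 9.40 and 9.10 in telogen dermis, 5.63, 6.45 and 4.59 in the sustained state and 5.97, 5.35 and 4.55 in neonatal dermis. Both low groups lay below the lowest transient array of 7.32. The differences from telogen were −3.82 ± 0.65 (adjusted p = 0.00664) and −4.09 ± 0.65 (adjusted p = 0.00301). Ntng1, a membrane-anchored relative of netrins, read 6.84, 7.17 and 6.97 in telogen and 4.71, 4.54 and 4.38 in neonatal dermis (−2.45 ± 0.41, adjusted p = 0.00414), with a sustained mean of 5.82 ± 0.66. Rgmb, a co-receptor of bone morphogenetic proteins and ligand of neogenin, had a mean of 8.42 ± 0.22 in telogen and 7.07 ± 0.04 in neonatal dermis (adjusted p = 0.00561), and 8.56 ± 0.41 in the sustained state. Another probe set fell likewise, from 8.42 to 8.64 in telogen to 6.93 to 7.21 in neonatal dermis. On its remaining ones these groups overlapped (5.45 to 6.16 and 5.55 to 5.74, and 5.28 to 5.59 and 4.92 to 5.35). There the sustained arrays lay above telogen, at 6.97 to 7.38 and 5.87 to 6.53.

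All 3 ephrins on the list rose in neonatal dermis, and all 3 also passed in the sustained state with the deposited scaling. Efnb2, the transmembrane ligand known from arterial vessels, read 7.01, 6.22 and 5.33 in telogen, 7.77, 7.79 and 8.41 in sustained and 10.03, 10.09 and 10.25 in neonatal dermis. The 3 groups did not overlap. The rise was 3.94 ± 0.40 (adjusted p = 0.000249) in neonatal and 1.81 ± 0.40 (adjusted p = 0.0197) in sustained dermis, and sustained minus neonatal dermis was −2.13 ± 0.40 (adjusted p = 0.0174). Efna5 followed the same order, with 5.83, 6.58 and 6.17 in telogen, 7.90, 7.85 and 7.20 in sustained and 9.04, 9.23 and 9.04 in neonatal dermis (2.91 ± 0.33, adjusted p = 0.000488, for neonatal against telogen). Efnb3 read 3.70, 4.75 and 4.44 in telogen, 6.49, 6.24 and 6.46 in sustained and 6.55, 6.53 and 6.96 in neonatal dermis (2.10 ± 0.29, adjusted p = 0.00264, and 2.38 ± 0.29, adjusted p = 0.000703). With centred arrays the sustained calls of Efna5 and Efnb2 were lost, and the neonatal calls were kept.

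Among Eph receptors, Epha7 rose in dermis. It read 0.54, 3.37 and 2.59 in telogen, 6.04, 6.06 and 4.87 in sustained and 5.59, 5.02 and 5.52 in neonatal dermis (3.49 ± 0.69, adjusted p = 0.0127, and 3.21 ± 0.69, adjusted p = 0.0139). The telogen arrays were dim and spread widely. With 16 added to the linear signal before log2, the differences shrank to 1.64 and 1.42, and the sustained call was lost without sustained replicate 2. Epha3 fell in sustained dermis, from 5.52 ± 0.28 to 3.88 ± 0.86 (adjusted p = 0.033), and its neonatal mean was 6.59 ± 0.14. Ephb1 and Ephb2 passed no comparison between states in dermis.

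**Figure D3:**
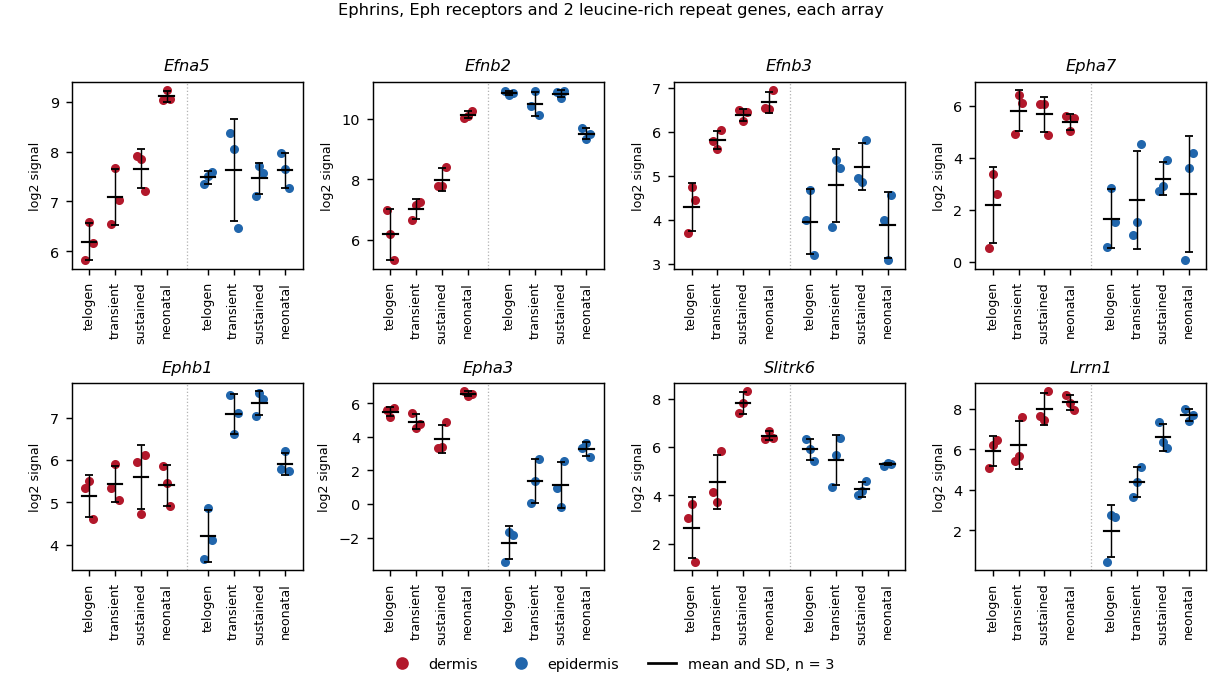
Log2 signal of the ephrin genes Efna5, Efnb2 and Efnb3, the Eph receptor genes Epha7, Ephb1 and Epha3, and Slitrk6 and Lrrn1 on each array (points) in dermis (red) and epidermis (blue) of the 4 states, with the group mean and SD (n = 3). Efnb2 rises to 10.03 to 10.25 on the neonatal dermal arrays while its neonatal epidermal arrays, at 9.31 to 9.68, are the lowest of the epidermis.

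The leucine-rich membrane proteins held some of the largest rises. Slitrk6, known for the innervation of the inner ear, read 3.09, 3.67 and 1.27 in telogen dermis, 4.14, 3.72 and 5.84 in the transient state, 7.39, 7.81 and 8.31 in the sustained state and 6.35, 6.68 and 6.40 in neonatal dermis. The sustained arrays were the highest. The difference was 5.16 ± 0.66 (adjusted p = 0.00201) in sustained and 3.80 ± 0.66 (adjusted p = 0.00505) in neonatal dermis, and 3.38 and 2.16 with 16 added before log2. Slitrk3, a synaptic adhesion protein, was dim except in neonatal dermis, where it read 5.75, 6.59 and 6.96 against −0.27, 0.87 and 0.68 in telogen (6.01 ± 0.46, adjusted p = 6.1e-05, and 2.57 with 16 added before log2). Lrrn1 rose in neonatal dermis from 5.92 ± 0.73 to 8.32 ± 0.36 (adjusted p = 0.0314). Lrrn4cl fell from 7.62, 7.70 and 6.84 in telogen to 4.53, 4.98 and 4.55 in sustained and 5.12, 4.32 and 4.08 in neonatal dermis (−2.70 ± 0.35, adjusted p = 0.00199, and −2.88 ± 0.35, adjusted p = 0.000653).

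Flrt1 and Flrt2, membrane proteins that bind Unc5 receptors and each other, fell. Flrt1 read 10.68, 10.78 and 10.93 in telogen, 7.91, 8.79 and 7.04 in sustained and 7.29, 7.50 and 7.30 in neonatal dermis (−2.88 ± 0.37, adjusted p = 0.00203, and −3.43 ± 0.37, adjusted p = 0.000368). Flrt2 fell from 10.10 ± 0.06 to 8.47 ± 0.22 in sustained and 8.22 ± 0.06 in neonatal dermis (adjusted p = 0.00336 and 0.000872). The adhesion molecule gene Nrcam, of the L1 family, had its highest dermal values in telogen (8.34, 8.86 and 8.24), against 5.26, 5.07 and 6.26 in sustained dermis (−2.95 ± 0.46, adjusted p = 0.00447) and 6.49 ± 0.42 in neonatal dermis (adjusted p = 0.0193). L1cam and Chl1 passed no dermal comparison.

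Among the cytoplasmic proteins, Ablim1, an actin-binding LIM protein, read 10.80, 10.42 and 10.60 in telogen, 7.36, 7.67 and 7.52 in sustained and 8.09, 7.86 and 7.96 in neonatal dermis (−3.09 ± 0.33, adjusted p = 0.00113, and −2.64 ± 0.33, adjusted p = 0.000883). Dpysl3, a collapsin response mediator downstream of Sema3a in neurons, fell from 9.89 ± 0.13 to 7.72 ± 0.27 in sustained (adjusted p = 0.000795) and 8.55 ± 0.15 in neonatal dermis (adjusted p = 0.00273). Srgap3, which acts downstream of Robo receptors, fell in the sustained state from 6.97 ± 0.09 to 5.37 ± 0.08 (adjusted p = 0.00427) and had a neonatal mean of 6.97 ± 0.13. Dpysl5, another collapsin response mediator, was dim on every dermal array: it read −1.70, −1.03 and −1.83 in telogen and 4.14, 4.69 and 4.94 in neonatal dermis (6.11 ± 0.48, adjusted p = 7.15e-05), and the difference was 1.30 with 16 added before log2.

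Markers of fibroblasts and of other cells moved with these states in the dermal sort. Of 6 named fibroblast markers, 2 fell in sustained and 1 in neonatal dermis, where 19.2% and 28.2% of named genes did. The log2 of their summed signals ran from 13.99 to 14.21 in sustained, 14.35 to 14.50 in neonatal and 14.40 to 14.60 in telogen dermis. Of 6 named pericyte and smooth muscle markers, 2 rose and 1 fell in sustained dermis, and 3 rose and 1 fell in neonatal dermis. In sustained dermis 3 of the 4 named keratinocyte markers and 3 of 3 named hair keratins rose, and the log2 of the summed keratinocyte signals ran from 10.80 to 11.67 against 8.74 to 9.65 in telogen dermis and 13.26 to 13.63 in sustained epidermis. The hair keratin sum ran from 8.15 to 9.97 against 4.34 to 5.11. Slitrk6 had a lower level in the epidermis of the same state (4.01 to 4.61) than in the dermis (7.39 to 8.31), and Sema3g likewise (5.38 to 6.88 against 10.13 to 10.40), whereas Plxnb1, Sema4g, Sema3e and Efnb2 were higher in the epidermis (Efnb2 had means of 10.82 there and 7.99 in sustained dermis), and the part of keratinocyte RNA in their dermal rises was not tested. Of the named macrophage and endothelial markers, 1 of 6 and 2 of 3 fell in sustained dermis, and their summed signals, though not every gene, were highest in telogen among the dermal groups: the macrophage sum of 6 genes ran from 9.54 to 9.93 there, 6.67 to 7.06 in sustained and 5.10 to 5.96 in neonatal dermis, and the endothelial sum of 3 genes from 8.60 to 9.10, 4.01 to 6.24 and 5.30 to 6.01. Their part in the falls of Sema3a, Sema3b, Ntn4 and the other members that fell was not tested. Of 9 named dermal papilla genes, 4 rose in transient, 6 in sustained and 5 in neonatal dermis, where 1.43%, 18% and 23.4% of named genes did, with sums of 11.86 to 12.71, 11.84 to 12.72 and 11.60 to 11.94 against 10.73 to 11.26 in telogen.

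Sustained and transient activation in D2 dermis, which share genotype, differed in 8 members, 1 higher and 7 lower, where 4.41% of named genes were higher, 6.05% lower and 2.22% of all probe sets passed. Slitrk6 was higher (3.27 ± 0.66, adjusted p = 0.0383). Sema3a (−3.37 ± 0.33, adjusted p = 0.00351), Sema3b (−2.53 ± 0.31, adjusted p = 0.00633), Ntn4 (−3.15 ± 0.65, adjusted p = 0.0401), Lrrn4cl, Ablim1, Dpysl3 and Flrt2 were lower. For Sema3a the array ranges were 5.31 to 5.58 and 8.09 to 9.46. The count was 3 without sustained replicate 2, 5 without sustained replicate 5, transient replicate 2 or transient replicate 3, and 13 without transient replicate 4. The calls of Slitrk6 and Ntn4 were lost without transient replicate 2, transient replicate 3, sustained replicate 2 or sustained replicate 5, and that of Slitrk6 also without sustained replicate 3.

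Sustained D2 and neonatal wild-type dermis differed in 15 members, 5 higher and 10 lower in the sustained state, where 11.5% of named genes were higher, 6.82% lower and 4.35% of all probe sets passed. Higher in sustained dermis were Sema3e, Sema3g (2.25 ± 0.38, adjusted p = 0.0116), Sema7a (1.86 ± 0.32, adjusted p = 0.0131), Rgmb (1.50 ± 0.24, adjusted p = 0.00924) and Ntn5. Ntn5 read 7.44, 7.63 and 7.79 in sustained against 5.20, 5.14 and 5.41 in neonatal dermis (2.37 ± 0.41, adjusted p = 0.0126). The neonatal arrays were higher for Slitrk3, Dpysl5, Plxnc1, Sema3a, Sema3f, Epha3, Efnb2, Sema6d, Srgap3 and Efna5. Epha3, a receptor of A-class ephrins, read 3.35, 3.42 and 4.87 in sustained and 6.73, 6.44 and 6.59 in neonatal dermis (−2.71 ± 0.41, adjusted p = 0.00738), and Plxnc1, the receptor of Sema7a, read 3.32, 0.22 and 2.84 against 5.31, 5.91 and 4.98 (−3.28 ± 0.79, adjusted p = 0.0489). The ligand Sema7a was higher, and its receptor Plxnc1 lower, in the sustained state. Without neonatal replicate 2 the count was 9. The call of Sema7a was lost without neonatal replicate 2, sustained replicate 2 or sustained replicate 3, and that of Plxnc1 without any neonatal array, sustained replicate 3 or sustained replicate 5. With 16 added before log2 the difference was −1.43 for Plxnc1, 1.45 for Sema3e, −2.52 for Slitrk3, −1.27 for Dpysl5 and −1.13 for Sema3f, and the call of Sema3f was lost when any 1 of the 6 arrays was left out.

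In epidermal keratinocytes fewer members, and fewer of all named genes, passed against telogen in the neonatal and sustained states than in dermis. The epidermal list also held fewer of the members (26 against 39). Of the 52 members, 8 were higher and 3 lower in neonatal than in telogen epidermis, where 12.3% of named genes were higher, 16.8% lower and 6.99% of all probe sets passed. The members higher were Lrrn1, Epha3, Sema3a, Sema3b, Sema4d, Ephb1, Dpysl2 and Sema6d, and the members lower were Lrrn3, Ablim3 and Efnb2. The count was 7 without neonatal replicate 2 or neonatal replicate 3.

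Sema3a and Sema3b, which fell in neonatal dermis, rose in neonatal epidermis. Sema3a read 3.85, 4.44 and 4.51 in telogen and 7.68, 6.56 and 7.16 in neonatal epidermis (2.86 ± 0.42, adjusted p = 0.00469). Sema3b read 5.09, 4.92 and 4.00 against 7.27, 7.44 and 7.09 (2.60 ± 0.45, adjusted p = 0.00954). In both cases every neonatal array exceeded every telogen array. Efnb2 went the other way, from 10.90, 10.79 and 10.85 in telogen to 9.68, 9.31 and 9.49 in neonatal epidermis (−1.35 ± 0.24, adjusted p = 0.0108), a call that was lost with centred arrays. Sema4d, a ligand of Plxnb1, read 5.88, 5.02 and 5.79 against 7.67, 7.49 and 7.66 (2.04 ± 0.42, adjusted p = 0.0183), and its call was lost without any single neonatal array, without telogen replicate 3 and with quantile normalization.

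Lrrn1 had the largest rise of the members in neonatal epidermis, from 0.46, 2.76 and 2.67 in telogen to 7.98, 7.38 and 7.69 in neonatal epidermis (5.72 ± 0.64, adjusted p = 0.00139, and 3.42 with 16 added before log2). Lrrn3, of the same family, fell from 7.84, 7.63 and 7.79 to 4.29, 4.57 and 5.13 (−3.09 ± 0.46, adjusted p = 0.00514). These relatives were thus called in opposite directions. Ablim3 fell from 8.61, 8.56 and 9.18 to 6.46, 5.91 and 5.51 (−2.82 ± 0.34, adjusted p = 0.00193). Epha3 was dim throughout the epidermis, at −3.43, −1.65 and −1.82 in telogen and 3.34, 3.64 and 2.80 in neonatal cells, so that its difference of 5.56 ± 0.82 (adjusted p = 0.00478) shrank to 0.67 with 16 added before log2. Ephb1 rose by 1.70 ± 0.36 (adjusted p = 0.0216, and 1.13 with 16 added before log2), a call lost without neonatal replicate 2, neonatal replicate 3, telogen replicate 2 or telogen replicate 4.

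The neonatal epidermal sort also differed in markers of other cells. The log2 sum of 6 fibroblast markers ran from 12.86 to 13.25 there, 11.38 to 11.77 in telogen epidermis, and 9.57 to 10.41 in sustained epidermis, and 3 of the 6 rose against telogen (Col1a2 had means of 11.17 and 9.80, while Lum had 4.58 and 5.09). The Schwann cell and nerve sum of 4 genes ran from 10 to 10.54 against 8.30 to 9.34. The pericyte and smooth muscle sum of 6 genes ran from 10.59 to 11.14 against 8.64 to 9.04, with 2 of 6 higher. Hair keratins rose as well (3 of 3), while 3 of 6 macrophage and 2 of 3 T cell markers fell. Lrrn1, Sema3a, Epha3, Dpysl2 and Sema6d had lower mean levels in neonatal epidermis than in neonatal dermis. Sema3b (7.09 to 7.44 against 6.15 to 6.50), Sema4d and Ephb1 had higher ones. The part of other cells in the neonatal rises of these members was not tested.

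Ephb1 was the member that rose with both forms of activation in epidermis. This receptor of B-class ephrins read 3.66, 4.88 and 4.10 in telogen, 7.55, 6.62 and 7.12 in the transient state and 7.05, 7.58 and 7.44 in the sustained state. All activated arrays lay above all telogen arrays and above the neonatal ones (5.74 to 6.21). The differences were 2.89 ± 0.36 (adjusted p = 0.0113) and 3.15 ± 0.36 (adjusted p = 0.00632), and the transient call was lost without telogen replicate 4. The ligand Efnb2 had means of 10.85 ± 0.05, 10.49 ± 0.40 and 10.82 ± 0.12 in telogen, transient and sustained epidermis, neither difference passing the test. On its other named probe sets, however, every sustained array read below every telogen array. These ran from 9.98 to 10.37 against 10.54 to 10.64, 9.65 to 9.72 against 10.12 to 10.20, and 8.80 to 9.03 against 9.36 to 9.51. Other markers moved with activation in this sort: 3 of 3 named hair keratins rose in transient and in sustained epidermis, 2 of 6 fibroblast markers fell in both, and 3 of 6 macrophage markers and 1 of 3 T cell markers fell in sustained epidermis. The hair keratin sum ran from 5.45 to 5.46 in telogen, 8.49 to 10.55 in transient and 9.26 to 10.05 in sustained epidermis, and the macrophage sum from 11.67 to 12.21 in telogen and 8.21 to 8.87 in sustained epidermis. Their part in the epidermal changes was not tested.

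Transient epidermis had 2 calls, Ephb1 higher and Chl1 lower (7.50, 6.74 and 6.34 against 3.76, 5.15 and 4.15, −2.51 ± 0.46, adjusted p = 0.0409), where 2.81% of named genes were higher, 0.987% lower and 0.844% of all probe sets passed. Chl1 is an adhesion molecule of the L1 family. With quantile normalization 1 member was higher, Ephb1, and none lower. The call of Chl1 was also lost with centred arrays and without any telogen array, transient replicate 2 or transient replicate 4. The count was 0 without telogen replicate 4, and 1 without telogen replicate 2, telogen replicate 3, transient replicate 2 or transient replicate 4. Sustained epidermis had 5 calls, 3 higher and 2 lower, where 3.05% of named genes were higher, 3.22% lower and 1.15% of all probe sets passed. Besides Ephb1, Lrrn1 rose from 1.97 ± 1.30 to 7.36, 6.36 and 6.09 (4.64 ± 0.64, adjusted p = 0.0126, and 2.46 with 16 added before log2), and Sema3a rose to 6.88, 6.46 and 6.68 (2.41 ± 0.42, adjusted p = 0.0297). Flrt1 fell from 8.73, 9.52 and 8.40 to 7.16, 6.73 and 6.47 (−2.10 ± 0.34, adjusted p = 0.0228), and Sema3c from 9.40, 8.59 and 9.21 to 6.50, 6.94 and 7.53 (−2.08 ± 0.41, adjusted p = 0.0474).

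The sustained epidermal calls were sensitive to single arrays. The count was 2, 2 and 3 without telogen replicates 2, 3 and 4, and 1, 2 and 2 without sustained replicates 2, 3 and 5. The calls of Sema3a and Sema3c were lost without any 1 of the 6 arrays, that of Flrt1 without telogen replicate 2, telogen replicate 3 or any sustained array, and that of Lrrn1 without sustained replicate 2. With centred arrays the calls of Sema3a and Sema3c were also lost, and with quantile normalization that of Sema3a. Between sustained and transient epidermis limma called 0 members, where 0.0439% of named genes were higher, 0.0658% lower and 0.0155% of all probe sets passed.

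Most members differed between the compartments, as did most of all named genes. Averaged over the 4 states, 25 were higher in dermis and 15 in epidermis, where 34.2% of named genes were higher in dermis, 36.5% lower and 40.5% of all probe sets passed. Named here are members whose 12 dermal and 12 epidermal arrays did not overlap. On the dermal side these were Slit3, Ntng1, Dpysl3, Dpysl2, Ntn5, Ephb2 and Flrt2. Slit3 ran from 8.38 through a median of 9.07 to 9.97 on the dermal arrays and from 5.04 through 5.75 to 6.80 on the epidermal ones (3.33 ± 0.14, adjusted p = 1.98e-12). Dpysl2, a collapsin response mediator, ran from 9.12 to 10.43 against 5.59 to 8.91 (2.60 ± 0.15, adjusted p = 7.36e-11), and Ephb2 from 7.09 to 8.01 against 5.12 to 6.59 (1.73 ± 0.14, adjusted p = 8.42e-09).

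On the epidermal side the members without overlap were Chl1, Sema3e, Plxnb1, Flrt3, Plxna2 and L1cam. Chl1 ran from 3.76 to 7.50 in epidermis and was dim in dermis, from −3.26 to 3.06 (−5.30 ± 0.50, adjusted p = 7.74e-08, and −1.92 with 16 added before log2). Sema3e ran from 7.07 to 9.14 in epidermis against 2.83 to 6.11 (−3.70 ± 0.21, adjusted p = 9.22e-11) and Plxnb1 from 7.60 to 9.17 against 3.97 to 7.22 (−2.84 ± 0.17, adjusted p = 1.52e-10). Flrt3 ran from 7.71 to 9.22 against 4.78 to 6.25 (−2.63 ± 0.14, adjusted p = 5.12e-11). Ligands and receptors were found on both sides: of the netrins, Slit3 and Rgmb, 4 of 6 were higher in dermis and none in epidermis, while of the plexins, Nrp2 and Robo2, 3 of 7 were higher in dermis (Nrp2, Plxna4, Robo2) and 4 in epidermis (Plxna2, Plxnb1, Plxnb3, Plxnc1). Among ephrins and Eph receptors, Efnb2 and Ephb1 were higher in epidermis (Ephb1 not with centred arrays), and Efnb3, Epha3, Epha7 and Ephb2 in dermis. Markers of other cells also differed. Higher in epidermis were 4 of 4 named Schwann cell and nerve, 5 of 6 macrophage and 3 of 3 T cell markers. So were 2 of 3 endothelial and 2 of 3 melanocyte markers, where 36.5% of named genes were. Of 9 dermal papilla genes, 8 were higher in dermis. The part of such cells in the compartment differences was not tested.

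**Figure D4:**
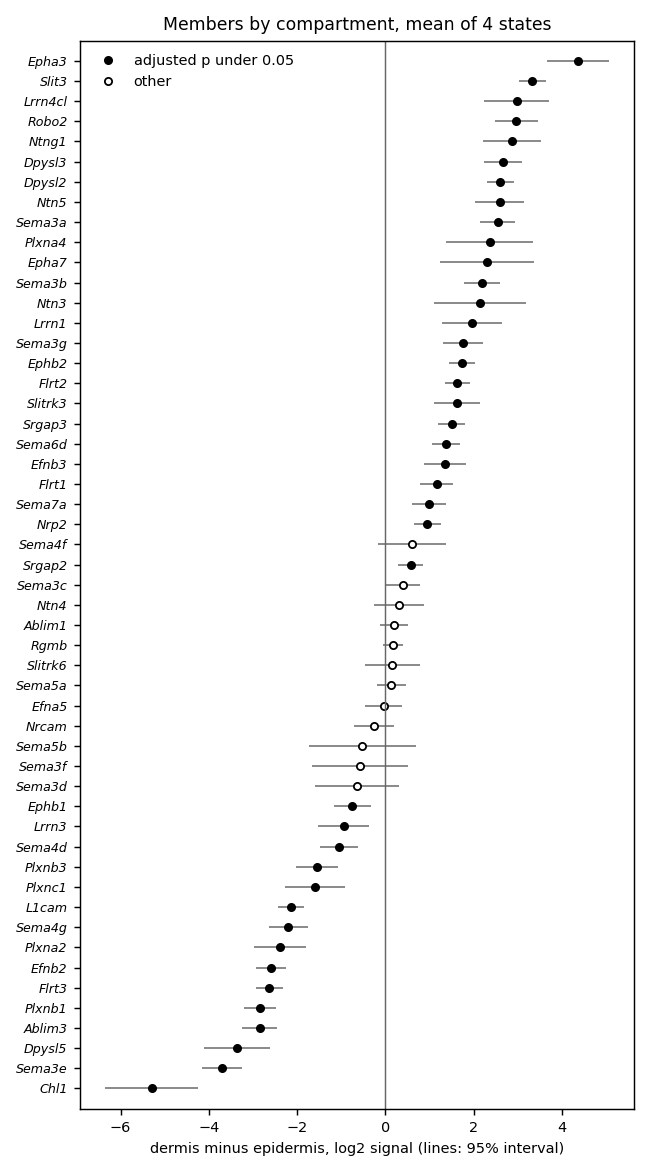
Dermis minus epidermis in log2 signal for each of the 52 members, as the mean over the 4 states (points) with its 95% confidence interval (lines), sorted by difference. Filled points passed at an adjusted p under 0.05: 15 lie on the epidermal side, led by Chl1 at −5.30, and 25 on the dermal side, led by Epha3 at 4.36. Epha3 was dim on every epidermal array (−3.43 to 3.64), and its dermal arrays (3.35 to 6.73) overlapped these.

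Whether a state changed a member differently in dermis and epidermis was tested as the difference of the differences. For neonatal against telogen this passed for 22 members, 10 with the higher difference in dermis and 12 in epidermis, where 11.4% and 13.3% of named genes and 5.67% of all probe sets did. For Efnb2 the dermal difference of 3.94 and the epidermal difference of −1.35 differed by 5.29 ± 0.46 (adjusted p = 2.97e-06). For Sema3b the fall in dermis and the rise in epidermis differed by −5.74 ± 0.55 (adjusted p = 7.83e-06). For sustained against telogen 12 members passed, 4 with the higher difference in dermis and 8 in epidermis, where 7.13% and 6.16% of named genes and 2.77% of all probe sets did. With centred arrays that split was 2 and 8. Sema3a was the clearest, with −4.46 in dermis and 2.41 in epidermis (−6.87 ± 0.53, adjusted p = 7.62e-06), and its sustained levels, 5.31 to 5.58 in dermis and 6.46 to 6.88 in epidermis, stood in the opposite order to those of telogen skin. Slitrk6 differed by 6.81 ± 0.83 (adjusted p = 0.000244), Sema3g by 3.73 ± 0.61 (adjusted p = 0.00208), Nrcam by −4.10 ± 0.61 (adjusted p = 0.00106) and Ephb1 by −2.69 ± 0.58 (adjusted p = 0.0151). The plot of sustained differences in both compartments shows these members away from the line of equal difference.

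**Figure D5:**
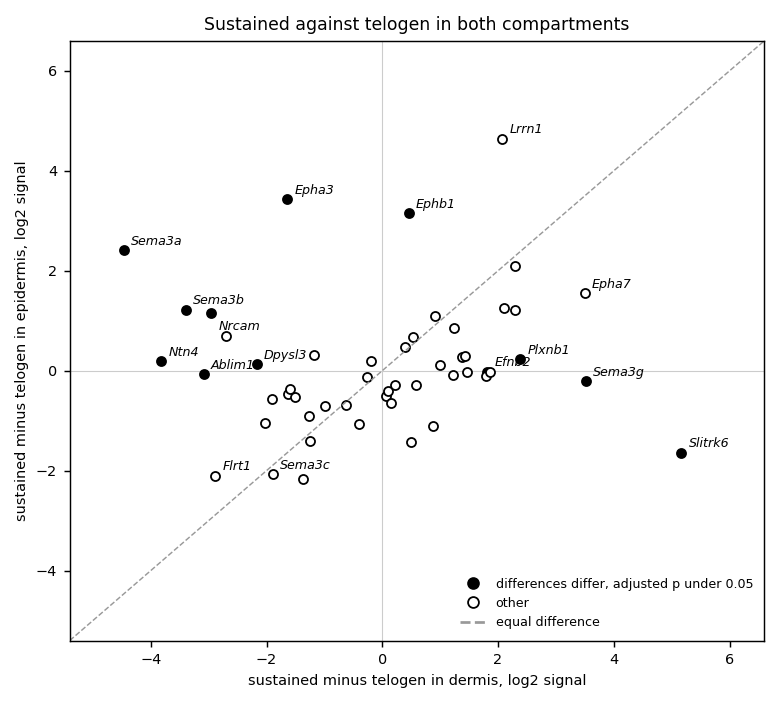
Sustained minus telogen in log2 signal in dermis (horizontal) against epidermis (vertical) for each of the 52 members, with a dashed line of equal difference. Filled points are the 12 members whose differences differ between compartments at an adjusted p under 0.05, among them Sema3a at −4.46 and 2.41 and Slitrk6 at 5.16 and −1.64.

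Where a called member had further named probe sets, these moved in the same direction. In sustained against telogen dermis 15 called members had 23 other probe sets, of which 23 had the same sign and 16 also passed, and in neonatal against telogen dermis 14 had 24, of which 24 had the same sign and 16 passed. These probe sets stand in the authors' lists as well, which in part fixes that agreement.

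Other genes of guidance signalling, named in the same lists, were counted beside the members. Single genes given from them were not picked by a rule set in advance. Of all named genes 18% rose and 19.2% fell in sustained dermis and 23.4% and 28.2% in neonatal dermis, the shares against which these short lists are to be read. Of 17 named adhesion molecules of axons, 5 rose and 3 fell in sustained dermis and 6 rose and 3 fell in neonatal dermis. Cadm3 fell from a mean of 11.04 in telogen dermis to 7.65 and 7.91, and Ncam1, the neural cell adhesion molecule, rose from 7.51 to 9.38 and 10.36. Ncam1 also rose in sustained epidermis, from 5.25 to 8.75 (adjusted p = 0.0248). Of 18 named cytoplasmic effectors, 5 rose and 3 fell in neonatal dermis. In sustained dermis 3 rose and 4 fell, among them the Src-family kinase gene Fyn, which fell from 9.68 to 7.55 (adjusted p = 0.00203). Of 8 named neurotrophic factors and receptors, 1 rose and 2 fell in sustained dermis, and 3 rose and 1 fell in neonatal dermis. The 1 that rose in sustained dermis was Ngfr, the low-affinity neurotrophin receptor, from 5.69 to 9.58 (adjusted p = 0.000976). Of 6 named vessel guidance partners, 2 fell in sustained dermis, Pgf and Kdr, and 3 fell in neonatal dermis, with Vegfa, a ligand that shares neuropilins with semaphorins, falling from 8.73 to 5.53 (adjusted p = 6.54e-05). Kdr is also 1 of the endothelial markers counted above.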

How the data were processed

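Sorted dermal and epidermal cells were profiled on 24 Affymetrix arrays, after small-sample amplification of the RNA per the labels' protocols. The deposited values are log2 signals. RMA and MAS5 are named in the submitters' processing notes, without versions and without saying which made the table; on the linear scale each array has a mean of 100 with 2% of values trimmed at each end. Gene names came only from the authors' deposited lists of regulated genes, which give a linear fold per comparison (for epidermis ANOVA p under 0.05 and fold above 2, per the file headers; for dermis the threshold is not given in the sources used here). The members and all gene lists were chosen with earlier results of these data known.

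After 64 control probe sets were left out, 45037 probe sets were fitted with limma 3.58.1 in R 4.3.3 (lmFit and eBayes, tested on simulated data), over the 12 arrays of a compartment or, for dermis against epidermis and differences of differences, over all 24. P-values were adjusted by Benjamini-Hochberg over all probe sets, and ± beside a difference is its standard error. No low-value filter was applied, so all 52 members were tested. Each array is a separate mouse within its compartment, and 3 arrays a group limit the precision. Given array by array were, by rule, up to 6 called members in each direction per comparison with the largest difference and no overlap (up to 8 for dermis against epidermis) and their ligand or receptor partners among the members; other members were chosen after their values were seen. Deviations of dermis and epidermis of the same mouse correlated at −0.05 to 0.15 (11 pairs, mouse numbers from the labels). The alternatives tried were dim probe sets (mean under log2 5) left out, quantile normalization, centring of each array on its median, 16 added before log2, eBayes with trend and robust, only the compared groups' arrays, a replicate block, any named probe set of a gene, and each array left out in turn. Leaving out transient epidermis replicate 4 from comparisons that do not use it was added after seeing the data.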

Additional observations from a re-analysis of the deposited data

Results flagged for a closer look

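These members are listed because the state changed them differently in the compartments, by limma's test of the difference itself at an adjusted p under 0.05. Each value is the dermal minus the epidermal difference on the log2 scale, first for neonatal against telogen. The difference was higher in dermis for Slitrk3 (5.95), Efnb2 (5.29), Dpysl5 (5.16), Slitrk6 (4.40), Sema4g (3.31), Ablim3 (3.11), Efna5 (2.76), Efnb3 (2.46), Sema5a (2.19) and Plxnb1 (2.16). The difference was higher in epidermis for Sema3b (−5.74), Epha3 (−4.50), Sema3a (−4.20), Ntng1 (−3.65), Ntn4 (−3.65), Lrrn1 (−3.31), Ablim1 (−3.10), Flrt1 (−2.58), Sema4d (−2.35), Dpysl3 (−2.19), Rgmb (−1.64) and Flrt2 (−1.55). Among them Sema3a, Sema3b and Efnb2 passed in both compartments, in opposite directions. With 16 added before log2 the value of Epha3 was 0.19, that of Dpysl5 0.88 and that of Lrrn1 −1.31, and none of the 3 passed. The call of Plxnb1 was lost with centred arrays, and those of Dpysl3, Efnb3 and Sema4d with quantile normalization. The call of Ntng1 was lost without telogen epidermis replicate 3, and that of Lrrn1 without any 1 of the 6 neonatal arrays, telogen dermis replicates 3 or 4 or telogen epidermis replicate 2.

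For sustained against telogen the same test listed 12 members. The difference was higher in dermis for Slitrk6 (6.81), Sema3g (3.73), Plxnb1 (2.15) and Efnb2 (1.83). The difference was higher in epidermis for Sema3a (−6.87), Epha3 (−5.06), Sema3b (−4.61), Nrcam (−4.10), Ntn4 (−4.01), Ablim1 (−3.01), Ephb1 (−2.69) and Dpysl3 (−2.30). Across the alternatives the value of Epha3, dim on every epidermal array, ran from −5.71 to −1.18 and kept its call. The call of Efnb2 was lost without most single arrays and that of Plxnb1 without telogen dermis replicate 2, telogen epidermis replicate 4, sustained dermis replicate 2 or sustained epidermis replicate 3. Both, and that of Dpysl3, were also lost with centred arrays, and those of Plxnb1 and Dpysl3 with quantile normalization. Sema3a is the member of this set that passed in both compartments with the deposited scaling. Its epidermal call was lost with centred arrays, with quantile normalization and without any single telogen or sustained array. No formal test for outlying arrays was run, since groups hold 3 arrays. Replicate 4 of transient epidermis was singled out by its median and its correlation with its group alone.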

How the results depend on the processing

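Of 95 single results, 53 kept direction and call under every alternative that could be fitted. One reversed: the neonatal difference of Epha3 between compartments was 0.19 with 16 added before log2. The counts for dermis against epidermis (40 members) and for both differences of differences (22 and 12) stayed within 1.5 times under every alternative. Numbers equal across states mark different mice, and deviations of same-numbered arrays correlated at −0.00201 to 0.0462 (13 dermal pairs) and −0.09 to 0.25 (15 epidermal pairs). With the replicate block the count was 14 for neonatal and 12 for sustained against telogen dermis, 1 for sustained against neonatal dermis, 7 for neonatal epidermis, and 0 for transient dermis, sustained against transient dermis, transient epidermis and sustained epidermis. For dermis against epidermis and the differences of differences the replicate block was the mouse (correlation 0.02) and left 40, 22 and 12.

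Transient against telogen dermis (2 members) gave 1 with centred arrays, 7 without dim probe sets, 8 with 16 added, 10 with trend and robust and 0 with only the compared arrays, and 0 to 5 with single arrays left out. Sustained against transient dermis (8) gave 15, 14, 15 and 0 under the last 4 of these, and 3 to 13 with single arrays left out. Transient epidermis (2) gave 1 with quantile normalization, then 5, 4, 8 and 0, and 0 to 2. Neonatal epidermis (11) gave 17 with trend and robust and 7 to 11 with single arrays left out. Sustained epidermis (5) gave 3 with centred arrays, 8 with trend and robust, 2 with only the compared arrays, and 1 to 5. Sustained against transient epidermis (0) gave 1 without dim probe sets and 3 with trend and robust. Sustained against neonatal dermis (15) gave 9 to 12 with single arrays left out. The cause of these changes was not tested. Below about 5 on the log2 scale, log2 differences depend on the offset, as for Dpysl5, Slitrk3, Sema3f, Epha3 and Chl1.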
